A study of Mus musculus with 9 samples.

Results

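Metformin, a biguanide given for type 2 diabetes, was compared with saline in liver of male C57BL/6J mice, all on a high fat diet. The comparison takes 6 of the 9 pooled liver samples of the series, 3 titled Metformin and 3 titled High fat diet. The other 3 pools, from mice on chow, are shown beside them and enter the main test only through the pooled spread. Mice entered the study at 3 weeks of age. Both high fat groups ate chow with 45% of its energy from fat for 17 weeks and were gavaged during the last 5, one with metformin at 3 mg/kg/day and the other with the saline vehicle. The chow controls ate standard chow for 17 weeks, and no gavage is recorded for them. All livers were taken at 20 weeks, and each pool mixed liver tissue of 4 mice, so that single mice cannot be read and the spread between pools is not the spread between mice. The comparison asks what metformin changes when diet and gavage are shared, so nothing in it speaks to the diet itself.

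Metformin enters hepatocytes mainly through organic cation transporters and partly inhibits complex I of the mitochondrial respiratory chain. The resulting shift in cellular energy charge is known to activate AMP-activated protein kinase, and the drug lowers glucose output from the liver. Its effects on lipid synthesis and on insulin signalling have also been studied widely. Long noncoding RNAs, which this array was built to include, are transcripts that encode no known protein. Some act on neighbouring genes and others are hosts of small RNAs.

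Each pool was read on its own single-colour Agilent array. Levels are log2 of the spot signal less the array's 75th percentile, so 0 is a fairly bright probe of that array, and a difference of 1 is a 2-fold difference. Levels of different probes cannot be set against each other. Of 97836 probes, 58705 stood well above background on at least 3 of the 6 arrays and 58656 of these could be tested. All 6 arrays resembled each other closely. Correlations across tested probes, which are not independent replicates, were 0.983 to 0.986 within the high fat diet pools, 0.987 to 0.989 within the metformin pools and 0.982 to 0.987 between them. Arrays were not spread evenly over the slides named in the file headers. Slide 2 held high fat diet replicates 2 and 3 with metformin replicates 1 and 2, while high fat diet replicate 1 shared slide 1 with the chow controls and metformin replicate 3 was the only array of slide 3. Only slide 2 allows the groups to be compared free of slide.

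Most probes carry an identifier that could not be matched to a gene name with the reference used here. That holds for every Agilent catalogue and NONCODE probe, so a gene without a named probe may still be on the array. The 2591 tested probes with a name stood for 2477 genes, 451 coding and 2026 of other kinds. None of the defining hepatocyte markers had a named probe, so the liver label could not be checked against them. Hnf4aos, a noncoding transcript overlapping the hepatocyte regulator gene Hnf4a, was above background on all 6 arrays. In bulk tissue, fewer cells of a type and less RNA per cell cannot be told apart.

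Across all probes, limma passed 4 at a Benjamini-Hochberg adjusted p under 0.05, 3 higher with metformin (0.00511% of those tested) and 1 lower (0.0017%). None of the 4 could be matched to a gene name. F430001A17, a RIKEN full-length cDNA clone, was at 0.39, 0.60 and 0.70 in high fat diet replicates 1 to 3 and at 2.35, 2.38 and 2.50 in metformin replicates 1 to 3. The metformin pools all lay above the saline pools and were close to each other, and the chow controls were at 0.16 ± 0.21 (SD, n = 3). The clone rose by 1.85 (SE 0.15, limma adjusted p = 0.00826), a 3.60-fold increase.

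E030029E13, another RIKEN clone, was nearly dark without the drug. It read -4.05, -4.36 and -3.19 in the high fat diet pools, of which 1 of 3 was above background, and -0.03, -0.46 and 0.31 in the metformin pools, all 3 above background. The groups did not overlap, and 0 of 3 chow pools was above background. The rise was 3.81 (SE 0.32, limma adjusted p = 0.00826), with a size that is uncertain because the saline level sits at the detection limit. After normexp background correction, which here adds an offset of 50 to each signal and so compresses differences between dim spots, the difference was 1.92.

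NONMMUT057558, a transcript of the NONCODE collection of long noncoding RNAs, was at 1.31, 1.38 and 1.82 with saline and at 3.12, 3.03 and 3.27 with metformin. High fat diet replicate 3 was the highest of the saline pools and still far below every metformin pool. It rose by 1.64 (SE 0.16, limma adjusted p = 0.0252), or 3.11-fold, from a saline level near the 1.15 ± 0.10 (SD, n = 3) of the chow controls. The only probe that fell, A_55_P2071646 from Agilent's catalogue, was at 0.72, 1.02 and 0.69 with saline and at -0.66, -0.57 and -0.50 with metformin. Its groups did not overlap, it fell by 1.39 (SE 0.14, limma adjusted p = 0.0252), and the chow controls stood between them at -0.21 ± 0.10 (SD, n = 3).

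**Figure D1:**
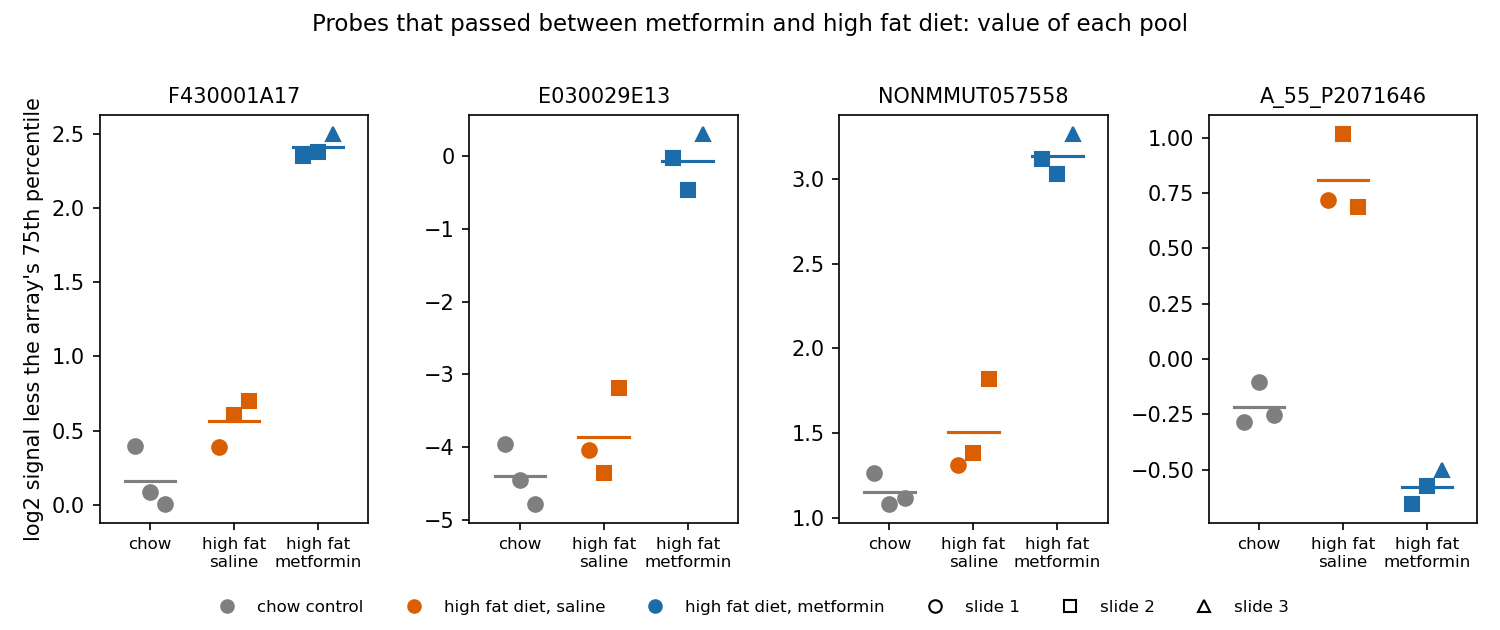
The 4 probes that passed between metformin and high fat diet, with 1 point per pool (log2 signal less the array's 75th percentile), a line at each group's mean, colours for groups and shapes for slides. In each panel the 3 metformin pools lie apart from the 3 saline pools, and the metformin pools on slide 2 lie near the one on slide 3.

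Within slide 2 the 4 probes differed by nearly as much as over all arrays. F430001A17 was higher with metformin by 1.71, E030029E13 by 3.53 and NONMMUT057558 by 1.48, and A_55_P2071646 was lower by 1.47. With 2 pools against 2, however, limma called 0 of 58679 probes (0.0%), the smallest adjusted p being 0.825. That comparison held 1783 probes higher (3.04%) and 1724 probes lower (2.94%) whose unadjusted p was under 0.05. Taking slide as a block over all arrays gives the same differences and also called 0 probes. In that fit 2438 had an unadjusted p under 0.05. Single arrays decided how many probes passed in the main comparison. Without high fat diet replicate 1, metformin replicate 1 or metformin replicate 3, limma called 0, with 3308, 3857 and 3006 probes at an unadjusted p under 0.05. Without chow control replicate 1, which enters only through the pooled spread, 9 passed, all 4 of the above among them. Without control replicates 2 or 3 the count was 2, and without metformin replicate 2 it was 1.

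An unadjusted p under 0.05 was reached by 3983 probes, of which 2027 were higher with metformin (3.46% of those tested) and 1956 lower (3.33%). The 3 metformin pools all lay above the 3 saline pools for 4834 probes (8.24%) and all below them for 4883 (8.32%). Among the 2477 named genes, an unadjusted p under 0.05 was reached by 87 in the higher and 77 in the lower direction. Few differences were large. A change of at least 2-fold at an unadjusted p under 0.05 was seen for 105 probes higher (0.179%) and 142 lower (0.242%). With 1 probe per gene, 5 named genes were higher and 7 lower by that measure.

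No named gene passed over all probes, and those that follow were picked for the smallest p in each direction among genes whose groups did not overlap. Their values are descriptions of which transcripts came nearest. Gm39094, a predicted noncoding RNA near Wdr11, had the smallest p. It was at 1.02, 0.70 and 1.21 in the high fat diet pools and at 1.88, 1.83 and 2.10 in the metformin pools. Every metformin pool was above every saline pool, and the chow controls were lower still at 0.50 ± 0.20 (SD, n = 3). The difference was 0.96 (SE 0.18, limma adjusted p = 0.339), and 0.90 within slide 2. RefSeq gives Gm39094 2 overlapping promoter windows, each from 250 bases before to 50 after a start. The one that begins further upstream is shown because this is the named transcript nearest to passing and was above background in every pool. It lies on GRCm38.p6 at chr7:129657847-129658146, plus strand.
Gm39094: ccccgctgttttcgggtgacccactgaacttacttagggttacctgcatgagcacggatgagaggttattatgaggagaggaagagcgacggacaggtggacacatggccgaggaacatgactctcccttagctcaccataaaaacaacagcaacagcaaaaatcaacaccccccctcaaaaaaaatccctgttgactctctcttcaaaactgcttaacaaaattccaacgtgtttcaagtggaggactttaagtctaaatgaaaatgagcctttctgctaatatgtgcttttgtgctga

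A search of both strands of that window for the full cAMP response element TGACGTCA, the E-box CACGTG, the CCAAT box, the TATA box TATAAA and the GC box GGGCGG found 0 matches. Among 32851 promoter windows of the same length, these letters occur in 1.79%, 7.15%, 37.4%, 13.6% and 35.7%. The absence of a match says only that these letters are not in this window.

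Gm39398, a predicted noncoding RNA, was at -0.60, -0.71 and -0.67 with saline and at -0.14, 0.18 and 0.14 with metformin. Its saline pools were nearly identical, and all metformin pools exceeded them and the chow level of -0.50 ± 0.09 (SD, n = 3). The difference was 0.72 (SE 0.14, limma adjusted p = 0.348). Gm32627, near the p53-inducible gene Trp53i11 and the tetraspanin gene Tspan18, was at 0.04, 0.22 and 0.28 against 0.81, 0.77 and 0.68. It too did not overlap between groups, with a difference of 0.57 (SE 0.13, limma adjusted p = 0.452) and chow controls at -0.38 ± 0.10 (SD, n = 3).

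Gm39443 had the largest difference upward among the 10 higher genes. Its probe was not well above background in any saline pool, at -3.47, -3.48 and -4.64, and was above background in all 3 metformin pools, at -1.62, -2.02 and -1.96. The probe thus passed the filter on dim probes only through its metformin pools, and it was picked for groups that did not overlap. As scaled here, the level with metformin was at least 3.61-fold higher (limma adjusted p = 0.427). After normexp correction the difference was 0.73 on the log2 scale, below that bound. The bound sets the metformin mean against the lowest signal well above background on each saline array, or the probe's own where that is higher. It compares means under the main scaling, here and for other probes below, and is not a limit that holds under other scalings. The chow controls varied widely, at -3.15 ± 0.92 (SD, n = 3) with 2 of 3 above background. Gm39443 overlaps Prkar1a, which encodes the regulatory subunit of the cAMP-dependent protein kinase that glucagon engages in hepatocytes. Both genes lie on the plus strand of chromosome 11 in the reference, and whether the probe also reads Prkar1a transcripts was not tested.

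Zmynd8, which encodes a chromatin reader, was at -2.94, -2.17 and -1.87 with saline and -1.46, -0.73 and -1.29 with metformin. The lowest metformin pool lay just above the highest saline pool, and the spread within each group was wide. The difference was 1.17 (SE 0.27, limma adjusted p = 0.452) and 0.93 within slide 2. The probe was designed on a RIKEN clone and need not read the main mRNA, as holds for every coding gene named here. The remaining genes of this set were Gm33560, 4933433G15Rik, 2610005L07Rik, Gm32052 and Gm36641, all noncoding or uncharacterised. Their differences were 0.65, 1.04, 0.61, 0.63 and 0.64, with limma adjusted p-values of 0.501 to 0.554. Only 1 of 3 saline pools was above background for Gm33560, and 2 of 3 for 4933433G15Rik and Gm36641. For 4933433G15Rik the groups lay 0.07 apart, and its difference ranged from 0.26 to 1.3 over the alternative fits. The probe of 2610005L07Rik was at 4.36 ± 0.22 (SD, n = 3) with saline and 4.96 ± 0.22 (SD, n = 3) with metformin. A330093E20Rik, which overlaps the potassium channel gene Kcnn2, came in through its size alone, with a difference of 0.79 (SE 0.22, limma adjusted p = 0.554).

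Among lower genes, Mir1a-1hg had the smallest p. It is the host transcript of miR-1a-1, a microRNA abundant in muscle. Its probe was above background in all 3 saline pools, at -3.03, -3.12 and -2.46, and in none of the metformin pools, at -3.87, -3.80 and -4.50. The probe thus passed the filter on dim probes only through its saline pools. The groups did not overlap, the level was at least 2.13-fold lower with metformin (limma adjusted p = 0.427), and 1 of 3 chow pools was above background. After normexp correction the difference was only -0.15 on the log2 scale. The array probe reads the long host transcript, and mature microRNA was not measured. Another muscle microRNA host, Mir133a-1hg, was at -2.23 ± 0.46 (SD, n = 3) with saline and -2.58 ± 0.44 (SD, n = 3) with metformin, with overlapping groups. These 2 were the only named and tested members of a 16-gene list of adipocyte, muscle and pancreas markers, and whether other tissue in a pool had a part in the Mir1a-1hg value was not tested. The mature strand that RefSeq lists for Mir1a-1 (GRCm38.p6, chr2:180389057-180389079, plus strand) and the promoter window of its host (chr2:180385354-180385653, plus strand) are printed because this was the named gene with the smallest p downward. Of the microRNA, the reference used lists only the 5p strand, and the other strand of the precursor is not shown. Capitals mark the seed of the 5p strand, bases 2 to 8.
mmu-miR-1a-1-5p: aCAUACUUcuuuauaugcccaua
Mir1a-1hg: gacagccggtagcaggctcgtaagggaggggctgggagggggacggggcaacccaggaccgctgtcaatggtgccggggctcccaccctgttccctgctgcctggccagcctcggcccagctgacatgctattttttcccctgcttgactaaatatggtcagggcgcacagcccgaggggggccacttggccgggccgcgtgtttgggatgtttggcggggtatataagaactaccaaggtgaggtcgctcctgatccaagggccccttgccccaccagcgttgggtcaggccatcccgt

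The host's window holds 64.3% G and C, against 45% in that of Gm39094, and it also had 0 exact matches to the same 5 motifs. It does hold tataag, which differs from TATAAA in the last base only, and such variants were not searched for.

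Gm35393, a predicted noncoding RNA near Adam23, showed the largest difference of any named gene and also the widest spread. It was at 6.24, 5.94 and 2.81 in the high fat diet pools and at 1.38, 2.30 and -0.67 in the metformin pools. High fat diet replicate 3 sat far below the other saline pools and just above the highest metformin pool, so the groups barely separated. The chow controls, by contrast, were all near 6.16 ± 0.14 (SD, n = 3). The difference was -3.99 (SE 0.89, limma adjusted p = 0.438). It was -2.53 within slide 2 and ranged from -5.08 to -2.53 over the alternatives.

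Mirt2, a noncoding RNA known to be induced by lipopolysaccharide and to restrain inflammatory signalling, was at -2.21, -1.67 and -2.31 with saline and -3.22, -2.88 and -3.80 with metformin. All 3 saline pools but 1 of 3 metformin pools were above background, and the groups did not overlap. The difference was -1.24 (SE 0.30, limma adjusted p = 0.476), from a saline level near the -1.77 ± 0.50 (SD, n = 3) of the chow controls. Gm31718, near the mitochondrial import receptor gene Tomm20, was at -2.29, -1.95 and -2.07 with saline and at -3.68, -4.43 and -2.56 with metformin. Metformin replicate 3, the array on slide 3, lay near the saline pools, and the difference was -1.45 (SE 0.37, limma adjusted p = 0.509) over all arrays against -2.04 within slide 2. After normexp correction Mirt2 differed by -0.38 and Gm31718 by -0.32.

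Coding genes in the lower set were Tmcc3, a transmembrane protein of the endoplasmic reticulum, Dennd5b, an exchange factor for Rab GTPases, and Smim8, a small membrane protein. Tmcc3 was at -0.50, -0.69 and -0.81 against -1.41, -1.14 and -1.38, a difference of -0.64 (SE 0.15, limma adjusted p = 0.476). Dennd5b was at 2.37, 2.15 and 2.21 against 1.75, 1.61 and 1.81, a difference of -0.52 (SE 0.14, limma adjusted p = 0.545). For both, the metformin pools lay below all saline pools and also below the chow means of -0.79 and 2.25. Smim8 differed by -0.58 (limma adjusted p = 0.548). The other lower genes were the pseudogene Speer5-ps1 (-0.75), 5430405H02Rik overlapping the repressor gene Tgif2 (-0.56) and Gm10653 overlapping Cln6 and Calml4 (-0.70), with limma adjusted p-values of 0.476 to 0.540. By size alone, Gm32747 (-0.75) and Gm32800 (-0.72) were added, and after normexp correction these were -0.006 and -0.39.

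**Figure D2:**
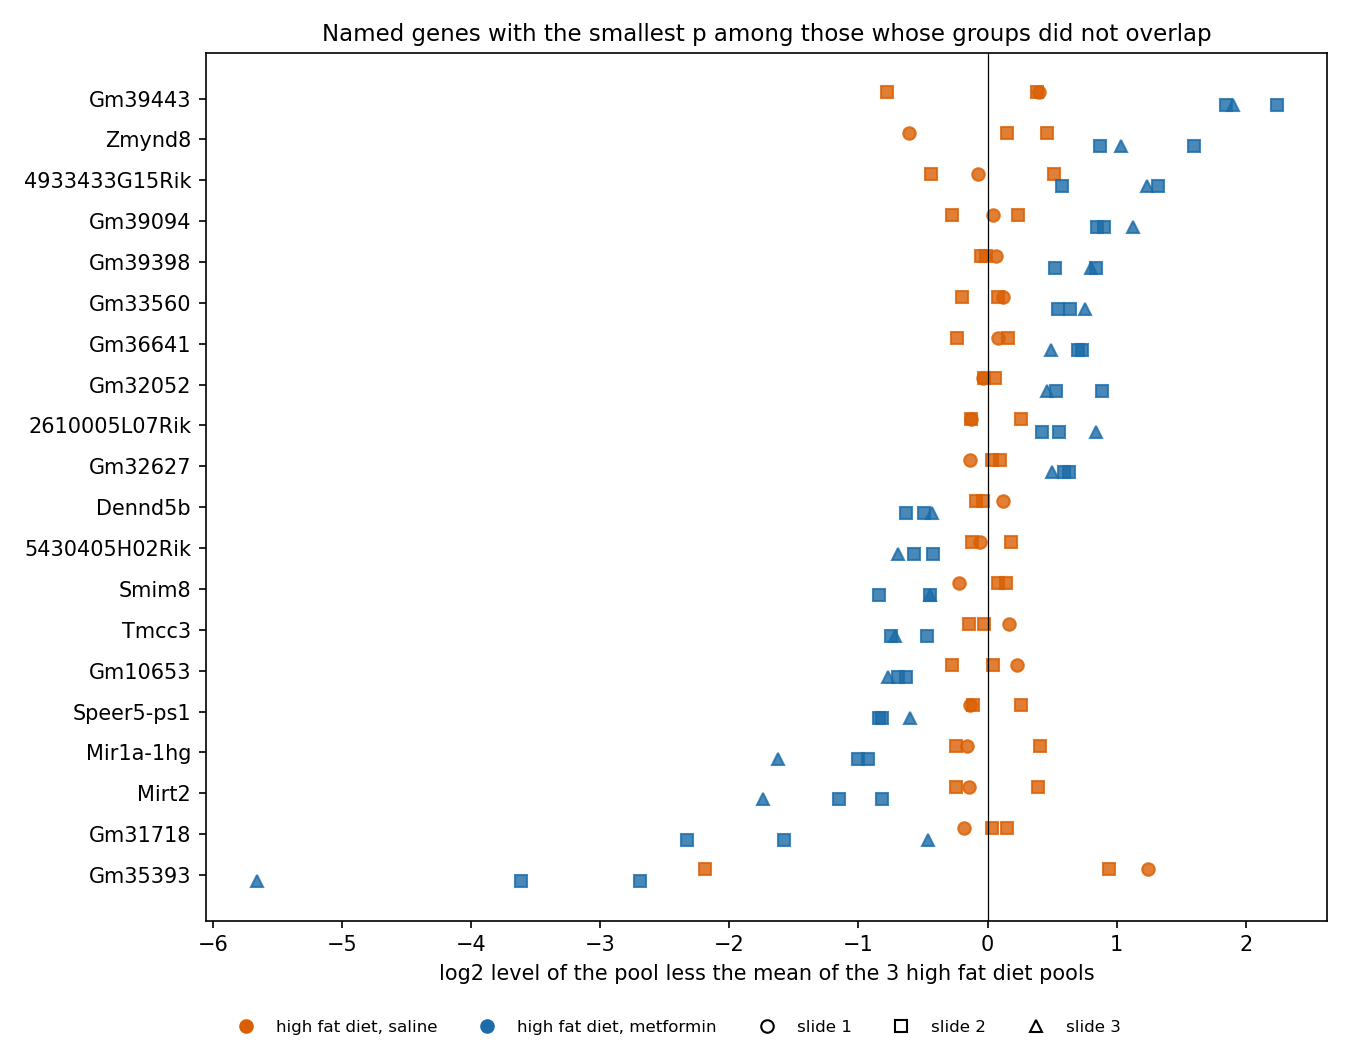
The 20 named genes with the smallest p among those whose groups did not overlap, 10 in each direction, with 1 point per pool as its log2 level less the mean of the 3 high fat diet pools, colours for groups and shapes for slides. Gm35393 spreads most in both groups, from -0.67 to 2.30 in level over the metformin pools.

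Among unnamed probes that did not pass, the 3 nearest in each direction were also large. A_55_P2138343 was at 4.44, 4.75 and 5.08 with saline and 6.28, 6.20 and 6.35 with metformin, a difference of 1.52 (SE 0.18, limma adjusted p = 0.0878). A_55_P1956497 differed by 1.47 (limma adjusted p = 0.098) and the RIKEN clone F830112C23 by 1.51 (limma adjusted p = 0.115). In the other direction, A_55_P2320313 was above background in all saline pools and in 0 of 3 metformin pools, at least 2.61-fold lower (limma adjusted p = 0.115), with a log2 difference of only -0.21 after normexp correction. A_55_P2005145 differed by -1.79 (limma adjusted p = 0.148), and a predicted RefSeq transcript without a symbol in the reference used here differed by -1.73 (limma adjusted p = 0.115). After normexp correction these were -0.63 and -0.55. The 3 metformin pools of A_55_P2138343 differed from each other by less than the saline pools did.

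Detection itself separated the groups for few probes. In all, 53 probes (0.0904%) were above background in 3 metformin and 0 saline pools, and 51 (0.0869%) the other way round. Each of these probes, A_55_P2320313 among the 51, met the filter of at least 3 arrays only through the group where it was detected. All of them were dim, with group means of at most -1.43 and -2.26 where detected. Named among them were Gm39443, 1700099I09Rik and Gm34348 with metformin only, and Mir1a-1hg, 4930404I20Rik, Gm32741, Gm39470 and Gm26763 with saline only. 1700099I09Rik, which overlaps the kinase gene Mast4, had a bound of 2.54-fold higher (limma adjusted p = 0.669). Its groups nearly met, with high fat diet replicate 3 at -3.27 and metformin replicate 3 at -3.07. Gm32741, which overlaps the calcium channel subunit gene Cacnb2, had a bound of 1.65-fold lower (limma adjusted p = 0.703). Both bounds compare means under the main scaling only. For Gm34348, by contrast, the fitted difference was 0.08 and the groups overlapped.

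Genes that metformin is known to act on were thinly covered by named probes, and unmatched probes may also read them. No named and tested probe was found for the AMP-activated kinase subunits, the organic cation transporters or the enzymes of glucose production, and 9 of the 26 genes to be reported whatever their values had one. Of 37 complex I subunits, 2 were tested. Ndufab1, the acyl carrier subunit, was at 0.28, 0.08 and 0.13 with saline and -0.003, -0.33 and 0.11 with metformin. Ndufa6, an accessory subunit, was at 1.11, 0.47 and 0.48 against 0.69, 0.83 and 0.90. Both overlapped between groups, with differences of -0.23 (SE 0.16) and 0.12 (SE 0.19) and limma adjusted p-values of 0.828 and 0.943. Among 10 noncoding transcripts within 50 kb of complex I genes, 6 were higher and 4 lower, with a median difference of 0.01 (0.03 for all named genes). One of them, Gm41330 near Ndufb9, was higher at an unadjusted p under 0.05, with a difference of 0.52 (limma adjusted p = 0.669).

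For lipid synthesis, 1 of 34 listed genes had a named and tested probe. Fads2, a desaturase of polyunsaturated fatty acid synthesis, was at 4.51, 4.43 and 4.65 with saline and at 4.75, 4.73 and 4.88 with metformin, without overlap, with a difference of 0.26 (SE 0.16, limma adjusted p = 0.821). It did not pass.

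Noncoding transcripts near listed metabolic genes leaned either way, list by list. Of all named genes, 56.6% were higher, with a median of 0.03, and limma called 0 members of any list. Neighbours of cholesterol and bile acid genes were higher in 5 of 5 cases, with a median difference of 0.25, and 2 of these were not above background in every pool. Neighbours of xenobiotic metabolism genes were higher in 5 of 5 cases, with a median of 0.22. Neighbours of genes of glucose production and glycogen numbered 4. Gm39443 is one of them and passed the filter on dim probes only through its metformin pools, and the other 3 were higher by 0.10 to 0.24. The neighbours of fatty acid oxidation genes went the other way over all arrays, with 2 higher and 6 lower and a median of -0.07. Within slide 2 they did not, with 4 higher and 4 lower and a median of -0.004. For inflammation and interferon 1 was higher and 3 lower. Neighbours of AMPK and mTOR signalling genes, of the respiratory chain outside complex I and of clock genes each split into 2 higher and 3 lower. Within slide 2 the clock neighbours were 4 higher and 1 lower, while the split of the others did not change. The lists of lipid synthesis (5 higher, 4 lower), antioxidant (5 and 3) and insulin signalling (2 and 2) neighbours were mixed.

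No other listed gene passed. Igf1, the growth factor that liver secretes, was at 3.20, 2.98 and 2.58 with saline and 2.85, 2.69 and 1.86 with metformin. The groups overlapped, and the difference of -0.45 (SE 0.26, limma adjusted p = 0.793) was -0.01 within slide 2. High fat diet replicate 1, on slide 1, was the highest pool and metformin replicate 3, on slide 3, the lowest. Fmo2, a flavin-containing monooxygenase of drug metabolism, was at -1.04, -1.47 and -1.53 against -0.54, -0.59 and -1.08. Metformin replicate 3 overlapped high fat diet replicate 1, and the difference was 0.61 (SE 0.26, limma unadjusted p = 0.0387, adjusted p = 0.710) over all arrays and 0.93 within slide 2. The clock repressor Cry2 (0.11), the antioxidant enzyme gene Sod1 (-0.06), the chemokine Cxcl14 (-0.46), the interferon-induced Mx2 (-0.03) and the pericyte marker Rgs5 (-0.12) all had overlapping groups and limma adjusted p-values of 0.850 to 0.989. The Cxcl14 value rests on high fat diet replicate 2, at -0.29 against -1.41 and -1.89, and without that array it was -0.007. Sod1, Mx2 and Rgs5 changed sign under some alternatives, scaling after normexp correction among them for Mx2.

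Transcripts that host small nucleolar RNAs, which guide the modification of ribosomal RNA, were lower in 6 of 7 cases, with a median difference of -0.39 beside 0.01 for all tested probes. Of all named genes, 56.6% were higher. Of the 7, 1 was lower at an unadjusted p under 0.05, beside 3.33% of all tested probes, and limma called 0. Snhg18 was at -3.55, -2.07 and -2.36 with saline and at -3.35, -3.38 and -3.63 with metformin. High fat diet replicate 1 lay among the metformin pools while replicates 2 and 3 lay above them, and with only 2 of 3 saline and 1 of 3 metformin pools above background the difference of -0.80 (SE 0.32, limma adjusted p = 0.695) is at the detection limit. Snhg7 was at -1.93, -1.67 and -1.62 against -1.98, -2.42 and -2.41, a separation by a narrow gap with a difference of -0.53 (SE 0.25, limma adjusted p = 0.748). Snhg16 (-0.54), Snhg3 (-0.39), Snhg5 (-0.24) and Snhg8 (-0.19) were lower on average, all but Snhg5 with overlap. Snhg9, the exception, was at 7.22, 7.10 and 6.90 against 7.12, 7.17 and 7.30. The same 6 were lower under every scaling run, and the median of the 7 was -0.15 with normexp background correction and -0.56 within slide 2.

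**Figure D3:**
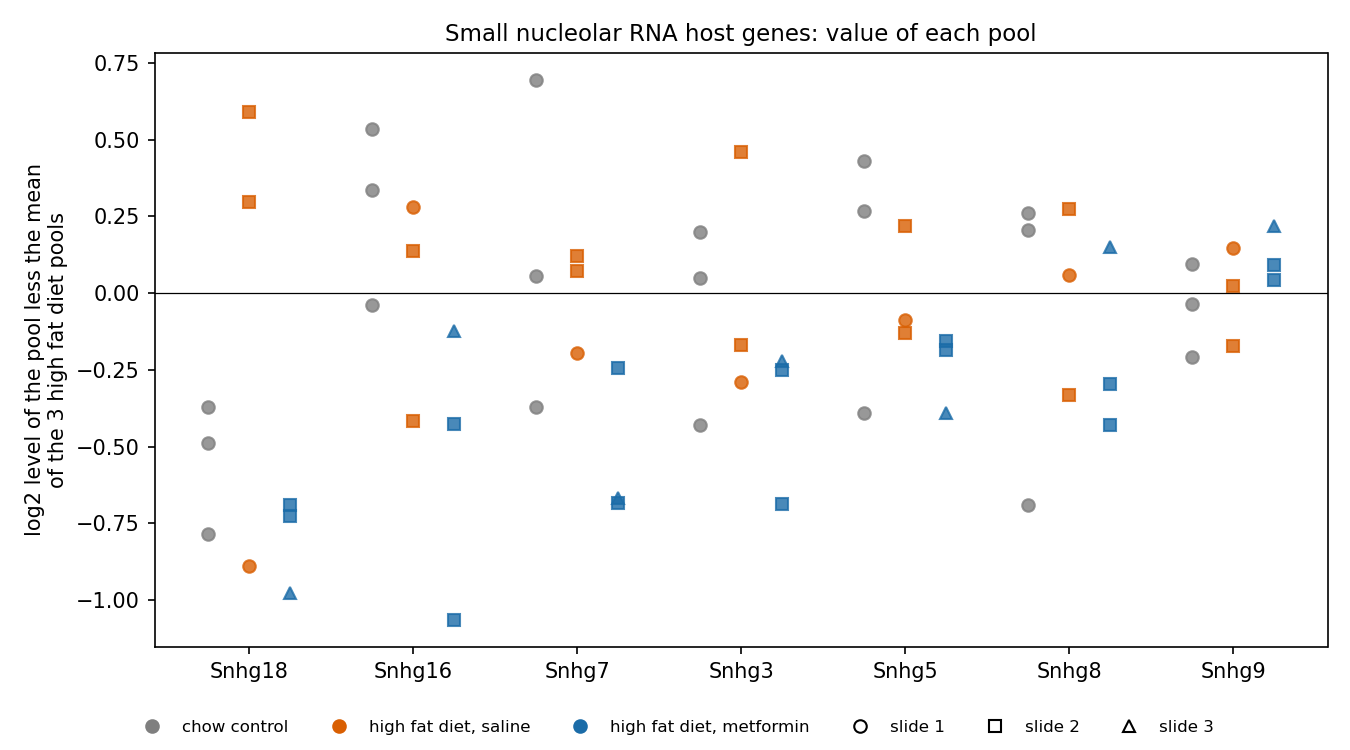
The 7 small nucleolar RNA host genes with a tested probe, with 1 point per pool as its log2 level less the mean of the 3 high fat diet pools, colours for groups and shapes for slides. Metformin pools tend to sit below 0 for all but Snhg9, within ranges that the saline or chow pools mostly share.

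MicroRNA host transcripts went both ways, with 2 higher and 4 lower of 6 and a median of -0.18. Apart from Mir1a-1hg, the one with the smallest p was Mir9-3hg, at 1.70, 2.00 and 1.63 with saline and 1.67, 1.47 and 1.37 with metformin, which overlapped. Mir22hg and Mirc35hg were slightly higher, by 0.13 and 0.09, also with overlap.

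Transcripts named as lying on the opposite strand of a coding gene numbered 48, of which 28 were higher and 20 lower, with a median of 0.05. At an unadjusted p under 0.05, 3 were higher and 4 lower, against the 3.46% and 3.33% of all probes given above. Bach2os, opposite the lymphocyte regulator gene Bach2, was at -2.29, -2.34 and -1.94 with saline and at -2.72, -2.87 and -3.25 with metformin. Its groups did not overlap, although 1 of 3 metformin pools was above background, and the difference was -0.76 (SE 0.25, limma adjusted p = 0.615). Bcas3os1 was at 0.61, 0.27 and 0.25 against -0.17, 0.01 and -0.62, a difference of -0.63 (SE 0.20, limma adjusted p = 0.602), and Sox6os differed by -0.63 (limma adjusted p = 0.669). Higher in this group were Gssos2 (0.63), which overlaps the glutathione synthetase gene Gss, Igf2os (0.57) and St8sia3os (0.41). Their limma adjusted p-values were 0.641 to 0.686.

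Among 18 tested long noncoding RNAs with established names, 7 were higher and 11 lower, with a median of -0.04 that was 0.04 after normexp background correction. Within slide 2 the tally turned, with 11 higher and 7 lower and a median of 0.07. Airn, the imprinted RNA that silences Igf2r in cis, was at -1.22, -0.77 and -0.74 with saline and at -1.67, -1.18 and -1.95 with metformin. Metformin replicate 2 overlapped high fat diet replicate 1 by a small margin, and the difference was -0.69 (SE 0.22, limma adjusted p = 0.597), while another probe of Airn gave -0.06. Chaserr, which restrains the chromatin remodeller gene Chd2, was at -3.15, -2.99 and -2.53 against -2.08, -2.25 and -2.67. It overlapped through metformin replicate 3, with a difference of 0.56 (SE 0.20, limma adjusted p = 0.648). Meg3, an imprinted RNA of the Dlk1-Dio3 region, was at -1.85, -1.92 and -2.06 with saline and -0.998, -1.84 and -1.74 with metformin, all below the chow level of -0.44 ± 0.54 (SD, n = 3). Only metformin replicate 1 stood well above the saline pools, and the difference was 0.42 (SE 0.28, limma adjusted p = 0.829). Gm15441, which overlaps the thioredoxin-interacting protein gene Txnip, differed by -0.63 over all arrays and by -1.15 within slide 2, with overlapping groups over all 6. Neat1, the scaffold RNA of nuclear paraspeckles, ranged from -2.85 to -0.75 over the metformin pools alone. Hnf4aos was at 1.91 ± 0.32 (SD, n = 3) with saline and 2.11 ± 0.05 (SD, n = 3) with metformin, with overlap.

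Inside slide 2, the named genes with the smallest p differed partly from those over all arrays. Gm41909, overlapping the exonuclease gene Dis3l2, was at -5.22 and -5.30 in high fat diet replicates 2 and 3 and at -3.46 and -3.22 in metformin replicates 1 and 2. Both of these saline values lie below the lowest signal well above background on their arrays (-4.05 and -4.20), so the size of the difference is not known. High fat diet replicate 1, on slide 1, was at -2.62, above every metformin pool, so over all arrays the groups overlapped. 4931440P22Rik, overlapping Tiparp, was at -3.94 and -3.79 with saline on slide 2 and at -2.70 and -2.87 with metformin, while high fat diet replicate 1 was at -2.25. It was dim, above background in 1 of 3 saline and 2 of 3 metformin pools, and its fitted difference over all arrays was 0.69, or 0.27 after normexp correction. In the other direction, Gm39039, near the p53-responsive nuclease gene Aen, was at -1.92 and -1.99 with saline on slide 2 and at -3.27 and -3.42 with metformin, where metformin replicate 3 on slide 3 was at -1.79, above all saline pools. 9430053O09Rik was at -2.53 and -2.82 against -4.25 and -4.87, with metformin replicate 3 at -3.19. It was above background in 3 saline pools and 1 of 3 metformin pools, and its fitted difference of -1.12 over all arrays was -0.13 after normexp correction. For these 4 the array on another slide did not follow its group on slide 2.

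Probe collections differed in the direction of their small changes. At that unadjusted level, 763 of the 27953 probes of Agilent's catalogue were higher (2.73%) and 1161 lower (4.15%). Among 15641 NONCODE probes, 649 were higher (4.15%) and 360 lower (2.30%). Predicted RefSeq transcripts leaned the same way as NONCODE, with 193 higher and 91 lower of 5181. With tested probes divided into 4 bins of mean level, catalogue probes were more often lower and NONCODE probes more often higher in each bin. The median difference was -0.01 for catalogue probes and 0.03 for NONCODE probes. Under normexp background correction the split of all probes moved from 2027 higher and 1956 lower to 2948 and 1766, and that of NONCODE probes to 967 and 193. With slide as a block, catalogue probes no longer leaned lower (512 higher, 488 lower), nor did they without high fat diet replicate 1 (734 higher, 733 lower). On slide 2 alone they were 688 and 990. The NONCODE lean was smaller without high fat diet replicate 3, at 56.4% higher, and without metformin replicates 1 or 3, at 58.4% and 58.2%. On slide 2 it was 63% higher and 57.8% with quantile normalization, and it turned without metformin replicate 1, to 441 higher and 544 lower.

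**Figure D4:**
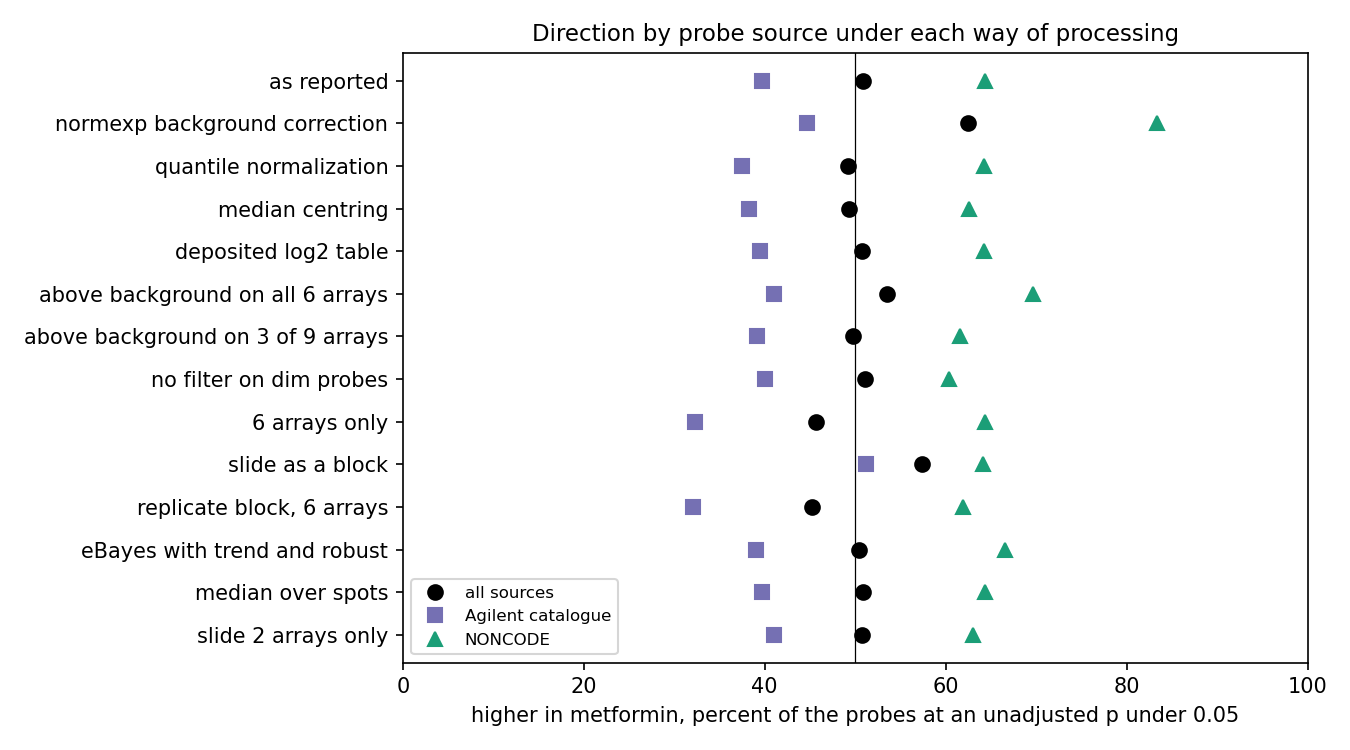
Share of probes higher in metformin among those at an unadjusted p under 0.05, in percent, for all sources, Agilent catalogue probes and NONCODE probes, 1 line per way of processing. Catalogue probes sit below 50% except with slide as a block (51.2%), and NONCODE probes lie between 60.4% and 83.4% in the ways shown, none of which leaves out a single array.

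Where a gene had several tested probes, they often disagreed. Of 106 such genes, 59 had all probes on the same side of 0. Among the 16 with a probe at an unadjusted p under 0.05, all probes shared a sign for 6, and for 0 of them did every probe reach that level. The median SD between the probes of a gene was 0.12, against a median SE of 0.19 for a single probe's difference.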

How the data were processed

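Liver RNA of 9 pools was hybridised to 9 single-colour arrays. Per the file headers, the authors ran Agilent Feature Extraction 11.5.1.1 on the scans (10.7 per the submitters' processing notes). The deposited processed signal is an intensity, background-subtracted by that software. The deposited log2 table equals log2 of this intensity less each array's 75th percentile within 0.01, with column medians of -2.39 to -2.16.

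Spots with outlier flags were left out, and 0 were saturated. Replicate spots were averaged as log2 intensity, and the 75th percentile of an array's probes was taken as its 0. Above background means that a share of 0.5 or more of a probe's spots passed the software's own test, and testing required this on 3 or more of the 6 arrays. A further 49 lacked a value on some array. The main model, lmFit and eBayes of limma 3.58.1 (R 4.3.3), gave each of the 3 groups its own mean on 9 arrays, and a further one used slide 2 alone. P-values were Benjamini-Hochberg adjusted over all tested probes at 0.05. SE comes from the model (residual degrees of freedom 6, prior 4.18). The model was also run on simulated data without slide effects and with shifts larger than most of the called differences. That run cannot show how the model behaves with slide effects or with smaller differences. An exact permutation test of 3 pools against 3 cannot go below a two-sided p of 0.1, so the adjusted p-values rest on pooling the spread over probes. The replicates are pools of separate mice per the labels.

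Names came from RefSeq accessions, RIKEN clones or identifiers matched to RefSeq (GRCm38.p6), and the brightest tested probe stood for a gene. The headers name mm9, so probes are given no coordinates, and the printed promoter and microRNA sequences carry those of GRCm38.p6. A neighbour overlaps a list gene or lies within 50 kb of it. Named genes were all called probes, the 10 each way with the smallest p among genes whose groups did not overlap, the 3 each way largest in size among those above background on all 6 arrays, up to 2 members of each list, 3 unnamed probes each way, 26 genes to report whatever their values and 3 each way within slide 2. The comparison, rule and lists were chosen with earlier results of these data known. Normexp used the median spot signal, because the mean signal named beforehand was not among the columns read. Alternatives covered background, normalization, filters, samples, slide, replicate number, moderation and leaving out each array. Results of some members are not reported here.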

Additional observations from a re-analysis of the deposited data

How the results depend on the processing

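The number of probes called between metformin and high fat diet was 4. It was 7 with normexp background correction and 9 with limma's trend and robust moderation, with all 4 among them each time. Without a filter on dim probes it was 2, both among the 4. With the 6 arrays only it was also 2, of which only 1 was among the 4. A filter for probes above background on all 6 arrays gave 5, of which 3 were among the 4. It was 1 with the replicate block over 6 arrays and 0 with slide as a block (2438 at an unadjusted p under 0.05 in limma). Leaving out each array gave 0 to 9. With quantile normalization, median centring, the deposited table and a filter over all 9 arrays the 4 called probes were the same. Within slide 2 the count was 0 under every alternative run, the last of which, leaving out each of the 4 arrays, was chosen after seeing the data. There limma's smallest adjusted p was 0.184, and 2036 to 5053 probes had an unadjusted p under 0.05. Probes at an unadjusted p under 0.05 numbered 3983, against 2438 with slide as a block, 5838 with the 6 arrays only, 6233 with the replicate block on the same 6 and 2708 to 6494 when each array was left out. Lower catalogue probes at that level went from 1161 to 2160 with the 6 arrays only and 2164 with the replicate block added, and lower NONCODE probes from 360 to 469 and 565. Replicate numbers were not taken as pairing the samples, since deviations of same-numbered pools from their group means correlated at 0.02, 0.13 and 0.08, and not every pool correlated best with its own number. All 4 called probes kept their sign under every alternative that could be computed (20 or 21 each). Among the genes picked by the selection rules, signs turned for 4 with small differences. Sod1 was at 0.072 with slide as a block and -0.202 to 0.079 when single arrays were left out. Mx2 was at 0.039 with normexp, 0.005 with slide as a block and -0.175 to 0.106 without single arrays. Without single arrays Rgs5 was at -0.266 to 0.105 and Neat1 at -0.173 to 0.876. Signs also turned outside that selection, as for Gm34348, at 0.08 in the main fit and -0.115 with slide as a block. The causes were not tested.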
